A study of Mus musculus with 6 samples.

Results

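The 8 genes described belong to the mouse oligoadenylate synthetase family and are Oas1a, Oas1b, Oas1c, Oas1g, Oas2, Oas3, Oasl1 and Oasl2. They were chosen by name from a table of 23107 genes, and all 8 were in it. They were measured by RNA-seq in CD11b+ Gr-1+ cells sorted from mouse gliomas, with 3 libraries from tumours with mutant IDH1 (mIDH1) and 3 from tumours with wild-type IDH1 (wtIDH1). All mice were of the C57BL/6 background, and every sample was a sort of the same gate after Percoll enrichment of immune cells. The study, by its title, concerned G-CSF made by mutant IDH1 glioma stem cells and a reversal of the immune suppression that myeloid cells exert in the tumour. The labels do not say how the tumours were made, or whether replicates came from separate mice, so the spread between libraries may be partly technical. The choice of genes used this same comparison, so their group differences are given as a description and not as a test.

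Oligoadenylate synthetases bind double-stranded RNA and then link ATP into short chains of adenylates. These chains are a second messenger of the antiviral response. Type I interferon induces most of the family through a transcription factor complex that holds Stat2 and Irf9 and binds interferon-stimulated response elements in promoters. In macrophages the family is a classical part of the antiviral response.

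All 8 genes lie on mouse chromosome 5 in the GRCm38.p6 annotation of the mm10 build. Oas2, Oas3 and the Oas1 genes form a cluster of 191.3 kb from 120730333 to 120921648. Oasl2 (114896926 to 114912245) and Oasl1 (114923143 to 114937911) lie 5.79 Mb away on the same chromosome. Oas1b is annotated there as a transcribed pseudogene, since C57BL/6 and many other laboratory strains carry an early stop codon in it.

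RefSeq promoter sequences were at hand for 6 of the 8 genes, not for Oas1b and Oas2. Each window ran from 250 bases before the transcription start to 50 bases after it. The core of the interferon-stimulated response element, GAAA and a second GAAA with any 2 bases between them, was searched on both strands. It stood in 4 of these 6 windows, those of Oas1a, Oas1c, Oas1g and Oas3, and in 3.44% of all 32851 promoter windows. The 120 bases upstream of the start are shown for these 4 genes, because they hold every match, which is in capitals.
Oas1a, chr5:120907526-120907645, minus strand: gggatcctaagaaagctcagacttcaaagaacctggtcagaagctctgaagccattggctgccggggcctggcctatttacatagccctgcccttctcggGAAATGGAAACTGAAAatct
Oas1g, chr5:120887614-120887733, minus strand: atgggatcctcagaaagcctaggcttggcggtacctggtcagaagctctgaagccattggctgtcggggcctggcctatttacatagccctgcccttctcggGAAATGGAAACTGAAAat
Oas1c, chr5:120812515-120812634, minus strand: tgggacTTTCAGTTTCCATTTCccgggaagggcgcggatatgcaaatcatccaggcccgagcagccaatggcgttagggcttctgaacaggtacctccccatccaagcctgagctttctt
Oas3, chr5:120777660-120777779, minus strand: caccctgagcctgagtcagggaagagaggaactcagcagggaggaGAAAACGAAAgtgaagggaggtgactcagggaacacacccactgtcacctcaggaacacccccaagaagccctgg

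In Oas1a and Oas1g 2 overlapping matches made the same block of 16 bases, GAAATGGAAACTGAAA, starting at base -20 and base -18 from the start. The Oas1c window held the same block on the opposite strand, where it reads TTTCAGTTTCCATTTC. The printed Oas1c stretch ends at 120812634, and the annotated span of Oas1b starts at 120812635. The block thus lies between the spans of these 2 genes, and which of them it serves was not tested. Only 7 of the 32851 windows held the block on either strand. These were the windows of Oas1a, Oas1g and Oas1c and 4 windows of Apol9a and Apol9b on chromosome 15. Apol9a had 0 counts in all 6 libraries, and Apol9b stood at 0.980 ± 0.281 CPM (counts scaled to a common library total) in mIDH1 and 2.61 ± 2.24 CPM in wtIDH1 (SD, n = 3 each), so no comparison with these genes was informative. The Oas3 match was a single one, at base -75. The windows of Oasl1 and Oasl2 did not hold this motif. Windows were placed by RefSeq starts, which lay inside the annotated span for every gene with a window except Oas1g. The shift was widest for Oasl1, whose window began at 114922990 and whose annotated span starts at 114923143. Sequence farther upstream of that span was not searched. The letters TTCNNNGAA, a gamma-activated site, stood in the Oas1a window among the members and in 8.30% of all windows, again on both strands.

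Read sharing limits how well the Oas1 genes can be told apart. Of all 50-base windows in the Oas1a transcript, 57.6% were identical to part of another gene's transcript, nearly all of them Oas1g. For Oas1g the share was 54.7%, and of its 100-base windows 38.2% were still shared with Oas1a. Oas1c shared 10.8% of its 50-base windows with Oas1d, Oas1e, Oas1f and Oas1h, and Oas1b 3.19% with Oas1g, Oas1a and unrelated genes. Oas2, Oasl1 and Oasl2 shared none and Oas3 0.471%. Levels of Oas1a and Oas1g are therefore uncertain one by one. Those of Oas1b and Oas1c are less so by this measure, with 0% of their 100-base windows shared. Levels of Oas2, Oasl1 and Oasl2 are not touched by this, and that of Oas3 hardly.

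**Figure D1:**
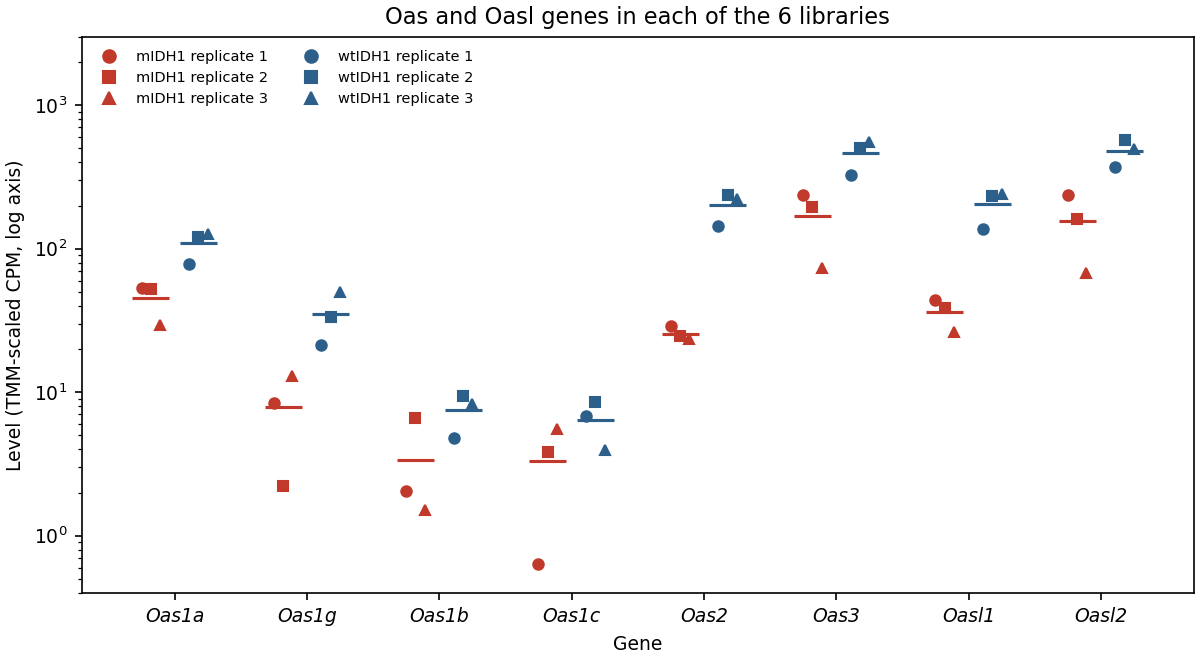
Level of each Oas and Oasl gene (y axis, TMM-scaled CPM on a log axis) in each library, with mIDH1 libraries left of wtIDH1 libraries and bars at the group means. Oas2 lies between 23.3 and 28.7 CPM in mIDH1 libraries and between 145 and 238 CPM in wtIDH1 libraries, whereas Oas1b and Oas1c overlap between the groups.

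All 8 genes averaged lower in mIDH1 than in wtIDH1 cells, and the difference was widest for Oas2 and Oasl1. Levels are CPM scaled by TMM, a factor that corrects for composition, and log2 fold changes are mIDH1 over wtIDH1 with their standard error (SE). Of the 8 genes, 6 had mIDH1 levels wholly below the wtIDH1 levels, as did 14.9% of all 12950 genes tested, while 14% had them wholly above, so that 28.9% did not overlap in either direction. The same 6 passed edgeR's quasi-likelihood test at an adjusted p under 0.05 as lower, as did 5.39% of all genes, and none passed as higher, as did 2.78%. Nothing is read from these counts, since this comparison was known when the genes were chosen. The members' median log2 fold change was -1.54, beside 0.06 over all genes tested. Without wtIDH1 replicate 2 or wtIDH1 replicate 3 the number past the threshold was 2, and these were Oas2 and Oasl1.

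Oas2, a synthetase with a duplicated catalytic unit, had 28.7, 24.8 and 23.3 CPM in mIDH1 libraries, against 145, 238 and 223 CPM in wtIDH1 libraries. The mIDH1 libraries were close together, and the lowest wtIDH1 library stood 5.04 times above the highest mIDH1 library. Its log2 fold change was -2.98 ± 0.22 SE, the most negative of the 8 genes.

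Oas3, the longest member, which in human cells is a main source of the adenylate chains in viral infection, lies next to Oas2. It had 237, 195 and 72.8 CPM in mIDH1 libraries, against 324, 505 and 556 CPM in wtIDH1 libraries. The groups did not overlap, but mIDH1 replicate 1 lay near wtIDH1 replicate 1 and mIDH1 replicate 3 far below both. The log2 fold change of Oas3 was -1.45 ± 0.35 SE, and it was -1.09 without mIDH1 replicate 3.

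Oas1a, an active synthetase, had 53.6, 52.5 and 29.2 CPM in mIDH1 libraries, against 78.8, 121 and 128 CPM in wtIDH1 libraries (log2 fold change -1.27 ± 0.26 SE). Its groups did not overlap, and mIDH1 replicate 3 was again the lowest library. Oas1g, the other active Oas1 enzyme of the mouse, had 8.47, 2.24 and 12.9 CPM in mIDH1 libraries, against 21.4, 33.4 and 49.9 CPM in wtIDH1 libraries (-2.16 ± 0.53 SE). Here mIDH1 replicate 3 was the highest of its group and mIDH1 replicate 2 the lowest. All 8 Oas1 rows of the table were also summed, which undoes wrong assignment of reads among them. Any shared reads dropped in counting would still be missing, and the counting settings are not known. The summed level was 64.8, 65.1 and 49.2 CPM in mIDH1 libraries, against 112, 174 and 190 CPM in wtIDH1 libraries. The log2 fold change of the sum was -1.41 ± 0.22 SE, between those of Oas1a and Oas1g.

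Oas1b and Oas1c, which have no synthetase activity, were low in both groups, and their groups overlapped. Oas1b had 2.04, 6.58 and 1.52 CPM in mIDH1 libraries, against 4.76, 9.48 and 8.27 CPM in wtIDH1 libraries (log2 fold change -1.15 ± 0.69 SE, and -2.07 without mIDH1 replicate 2). The overlap came from mIDH1 replicate 2, which lay above wtIDH1 replicate 1. Oas1c had 0.632, 3.85 and 5.52 CPM in mIDH1 libraries, against 6.79, 8.50 and 3.93 CPM in wtIDH1 libraries (-0.95 ± 0.77 SE, with -0.45 without mIDH1 replicate 1 and -1.52 without mIDH1 replicate 3). It is the one member whose lowest library of the wtIDH1 group was replicate 3, and its mIDH1 libraries spanned 8.73-fold, the widest range of any member.

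Oasl1 lacks synthetase activity and is known in the mouse as a brake on the translation of Irf7. It had 44.1, 38.7 and 26.4 CPM in mIDH1 libraries, against 136, 235 and 242 CPM in wtIDH1 libraries (log2 fold change -2.49 ± 0.26 SE). The groups stood well apart, with the lowest wtIDH1 library 3.09 times above the highest mIDH1 library. Oasl2, which in the mouse keeps synthetase activity, had 237, 162 and 67.3 CPM in mIDH1 libraries, against 373, 575 and 493 CPM in wtIDH1 libraries (-1.63 ± 0.35 SE). Like Oas3 it fanned out in the mIDH1 group, over 3.52-fold against 3.26-fold for Oas3, while wtIDH1 libraries spanned 1.54-fold for Oasl2 and 1.72-fold for Oas3. Over the 9647 genes tested with a mean of at least 5 CPM, the median span was 1.53-fold in mIDH1 and 1.42-fold in wtIDH1 libraries.

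The other 4 Oas1 genes were at or near 0. Oas1e and Oas1f had 0 counts in all 6 libraries, which allows a level of up to 0.0861 to 0.151 CPM per library by counting error. Oas1d, a gene of oocytes, had 5 counts in wtIDH1 replicate 1 and none elsewhere. Oas1h had 1, 0 and 0 counts in mIDH1 libraries, against 1, 60 and 0 counts in wtIDH1 libraries, so that wtIDH1 replicate 2 alone rose above the floor.

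Per kilobase of transcript, which allows levels of different genes to be set side by side, Oasl2 was the most abundant member in both groups. In mIDH1 the order was Oasl2 (49.7 ± 27.2 CPM per kb), Oas3 (35.7 ± 18.1), Oas1a (23.9 ± 7.29), Oasl1 (16.7 ± 4.17), Oas2 (6.47 ± 0.709), Oas1g (3.98 ± 2.71), Oas1b (1.84 ± 1.52) and Oas1c (1.46 ± 1.08). In that order only Oasl1 and Oas2 did not overlap over the mIDH1 libraries, and every other pair of neighbours did. Set side by side within each mIDH1 library, however, Oasl2 always stood above Oas3 and Oas1a above Oasl1. The other overlapping pairs changed order between mIDH1 libraries. In wtIDH1 it was Oasl2 (154 ± 32.5 CPM per kb), Oas3 (97.8 ± 25.8), Oasl1 (93.8 ± 27.1), Oas1a (57.8 ± 14.01), Oas2 (51.0 ± 12.7), Oas1g (17.7 ± 7.23), Oas1b (4.09 ± 1.34) and Oas1c (2.80 ± 1.01) (SD, n = 3 for each value). There Oasl2 and Oas3, Oas2 and Oas1g, and Oas1g and Oas1b did not overlap, although the gap between Oasl2 and Oas3 was narrow, at 119 CPM per kb in the lowest library for Oasl2 and 118 in the highest for Oas3. Within each wtIDH1 library Oas1a always stood above Oas2, while Oas3 and Oasl1, and Oas1b and Oas1c, changed order. Oas1a stood above Oasl1 in every mIDH1 library and below it in every wtIDH1 library.

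**Figure D2:**
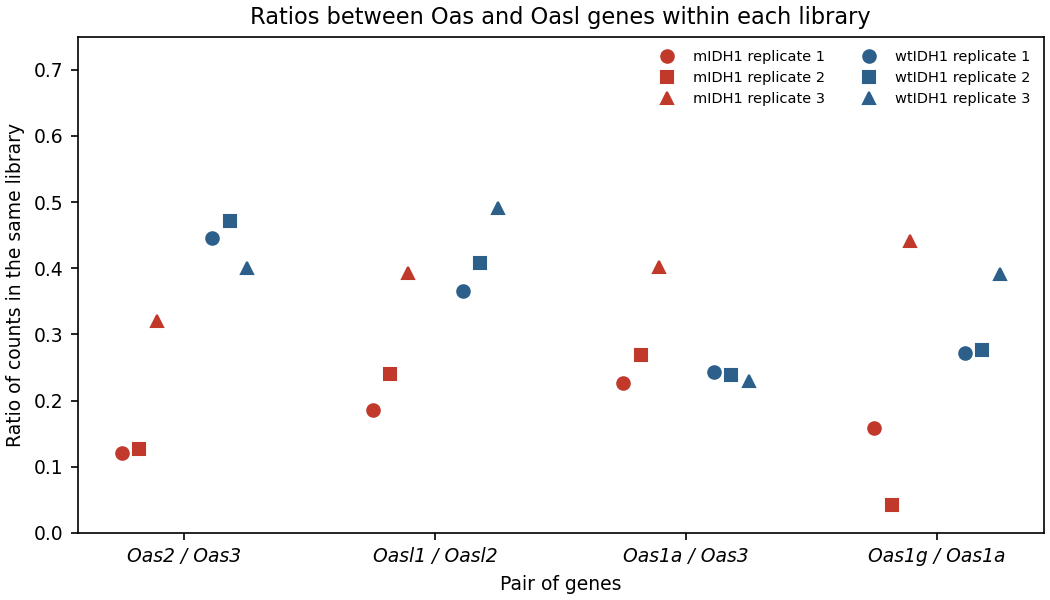
Ratio of the counts of 2 genes within the same library (y axis), for mIDH1 libraries on the left and wtIDH1 libraries on the right of each pair. The Oas2 to Oas3 ratio lies between 0.121 and 0.320 in mIDH1 libraries and between 0.400 and 0.472 in wtIDH1 libraries.

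Ratios within a library do not depend on how libraries are scaled, and they show whether members differed between groups in proportion. The counts of Oas2 over those of Oas3 were 0.121, 0.127 and 0.320 in mIDH1 libraries, against 0.446, 0.472 and 0.400 in wtIDH1 libraries. These did not overlap, with mIDH1 replicate 3 nearest to wtIDH1. The ratio of Oasl1 to Oasl2 was 0.186, 0.240 and 0.392 in mIDH1 libraries, against 0.365, 0.408 and 0.492 in wtIDH1 libraries, where mIDH1 replicate 3 lay inside the wtIDH1 range. The ratio of Oas1a to Oas3 was steady in wtIDH1, at 0.243, 0.239 and 0.229, and was 0.226, 0.269 and 0.402 in mIDH1. Oas1g over Oas1a was 0.158, 0.0426 and 0.441 in mIDH1 libraries, against 0.272, 0.277 and 0.391 in wtIDH1 libraries, and this ratio rests on reads that the 2 genes share in part.

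Most members shared the lowest library of each group. Of the 8 genes, 6 were lowest in mIDH1 replicate 3 among mIDH1 libraries, and 7 were lowest in wtIDH1 replicate 1 among wtIDH1 libraries. Over all genes tested these libraries were the lowest of their group for 35.4% and 35.7% of genes. The level summed over the 8 genes was 611, 486 and 239 CPM in mIDH1 libraries, against 1090, 1725 and 1704 CPM in wtIDH1 libraries.

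The libraries also differed in markers of myeloid cell types. Cd11b (Itgam) and the leukocyte antigen gene Ptprc were high in all 6 libraries, at 2072 ± 211 and 1145 ± 228 CPM in mIDH1 and 1894 ± 146 and 1249 ± 40.5 CPM in wtIDH1 (SD, n = 3 each). Ly6c2, a gene of the Gr-1 antigens, stood at 45.0 ± 10.4 CPM in mIDH1 and 152 ± 54.1 CPM in wtIDH1. Ly6c1 was low, at 7.84 ± 2.53 CPM in mIDH1 and 11.2 ± 4.30 CPM in wtIDH1, and its groups overlapped. Ly6g was looked for by name and was not among the genes counted. The 7 macrophage markers in the table summed to 6003, 6345 and 13404 CPM in mIDH1 libraries, against 4755, 3923 and 3950 CPM in wtIDH1 libraries, and 4 of the 7 passed the test as higher. The library with the highest sum, mIDH1 replicate 3, is the one where Oas3 and Oasl2 were lowest. The 6 monocyte markers in the table summed to 2026, 1859 and 2225 CPM in mIDH1 libraries, against 1201, 1847 and 1699 CPM in wtIDH1 libraries, with F13a1 passing as higher and Ly6c2 and Plac8 as lower. Within this list mIDH1 replicate 3 had the most F13a1, at 1970 CPM where mIDH1 replicates 1 and 2 had 882 and 842 CPM. The same library had the least of the other 5 genes in the mIDH1 group, such as Plac8, at 25.2 CPM where mIDH1 replicates 1 and 2 had 111 and 112 CPM, and Ccr2, at 61.1 CPM where they had 247 and 302 CPM. The 5 markers of plasmacytoid dendritic cells, which are strong interferon producers, summed to between 361 and 433 CPM in mIDH1 and between 513 and 724 CPM in wtIDH1. Of these Bst2 and Irf8, both also interferon-responsive, passed as lower. Irf8 was the largest part of the sums, at 264 ± 20.9 CPM in mIDH1 and 447 ± 102 CPM in wtIDH1 (SD, n = 3 each). The defining gene Siglech stood at 8.79, 25.2 and 6.99 CPM in mIDH1 libraries, against 26.1, 23.5 and 12.2 CPM in wtIDH1 libraries. Tcf4 had means of 78.0 CPM in mIDH1 and 85.5 CPM in wtIDH1, and Ccr9 had 3.64 and 3.39 CPM. Siglech, Tcf4 and Ccr9 overlapped between the groups and did not pass. The 8 neutrophil markers in the table summed to between 277 and 303 CPM in mIDH1 and between 85.8 and 136 CPM in wtIDH1. Of these Mmp8 and Cxcr2 passed as higher, and no other did. S100a8 was low, at 10.3 ± 0.965 CPM in mIDH1 and 4.31 ± 2.53 CPM in wtIDH1 (SD, n = 3 each). S100a9 stood at 48.8 ± 6.40 CPM in mIDH1 and 31.2 ± 10.8 CPM in wtIDH1. Mmp9, Ltf and Retnlg overlapped between the groups, and Camp was too low to be tested. Whether the share of neutrophils differed was not tested. No marker found in the macrophage, monocyte, plasmacytoid dendritic cell and neutrophil lists was at 0 in all libraries. The part of the cell mix in the Oas levels was not tested, and in bulk RNA fewer cells of a type and less RNA per cell cannot be told apart.

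**Figure D3:**
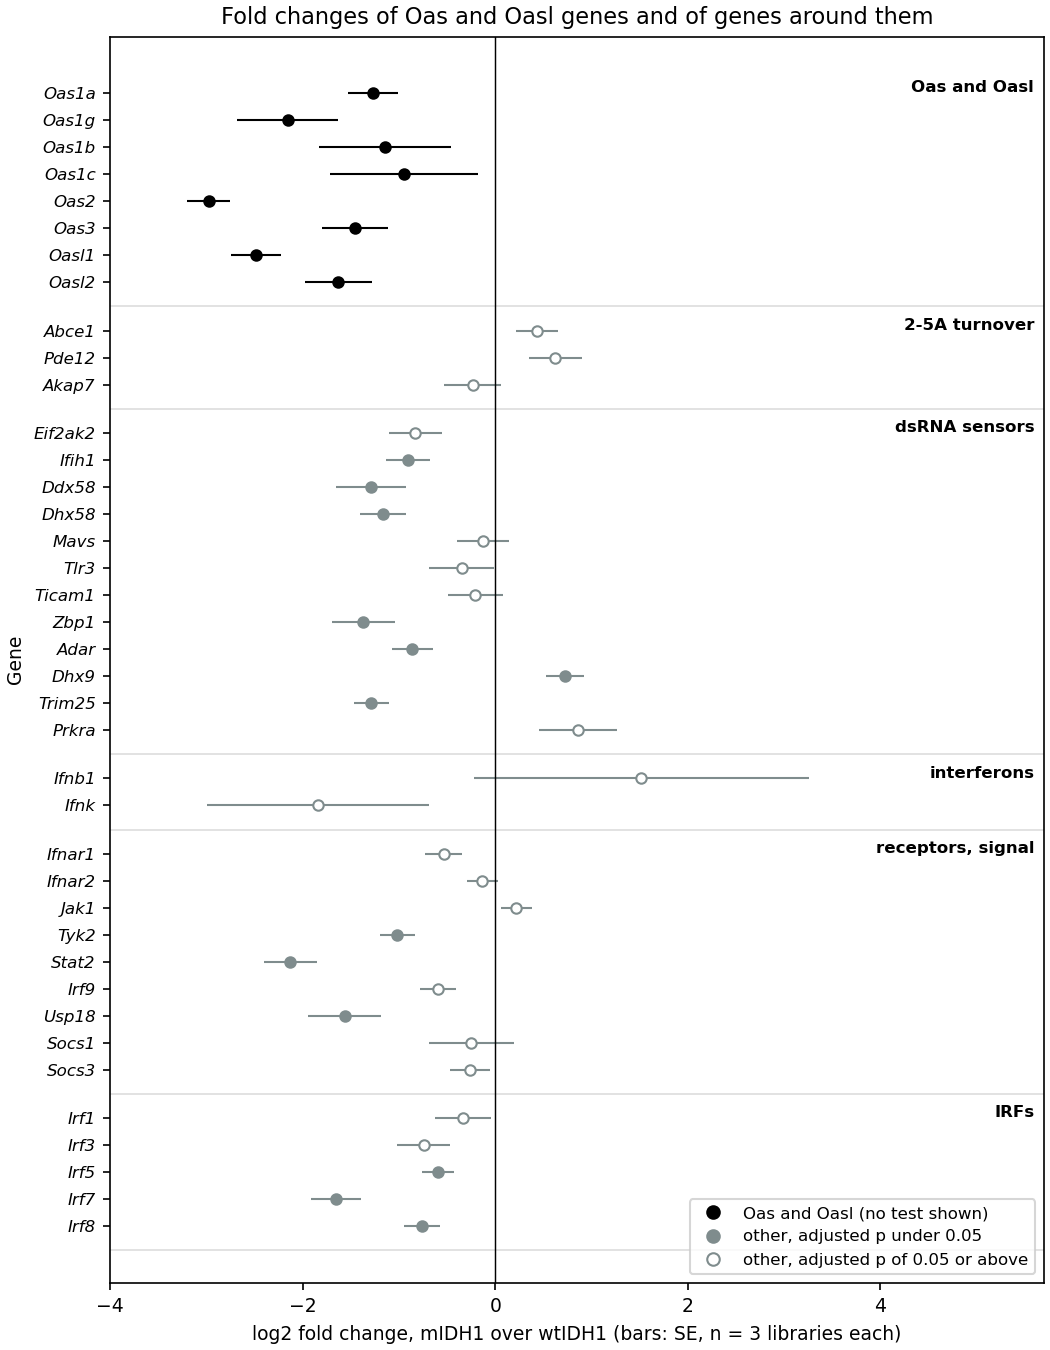
Log2 fold change, mIDH1 over wtIDH1, with its SE (x axis) for the Oas and Oasl genes in black, without a test, and for the tested genes around them in grey, filled where the adjusted p was under 0.05. Among the Oas and Oasl genes Oas2 lies farthest to the left, at -2.98, and Oas1c nearest to 0, at -0.95.

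Of 3 genes that act on the adenylate chains or downstream of them, none passed the test. Abce1, a ribosome recycling factor gene that also acts in this pathway, had a log2 fold change of 0.44 ± 0.21 SE (edgeR adjusted p = 0.259). Pde12, which degrades the adenylate chains, had 0.62 ± 0.27 SE (edgeR adjusted p = 0.195), and Akap7, which has a domain of that activity in mice, had -0.23 ± 0.30 SE (edgeR adjusted p = 0.710). None of these 3 genes passed by edgeR or DESeq2, and 1 of them, Pde12, had an unadjusted p under 0.05 by edgeR.

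Other sensors of double-stranded RNA and their adaptors were lower in part. Of 12 such genes tested, 6 fell and 1 rose. The RNA helicase gene Ifih1, which encodes Mda5, fell to 137 ± 42.6 CPM in mIDH1, against 257 ± 45.1 CPM in wtIDH1 (SD, n = 3 each; log2 fold change -0.91 ± 0.23 SE, edgeR adjusted p = 0.0305). Ddx58, the gene of Rig-I, had a log2 fold change of -1.29, Dhx58 one of -1.17, the Z-form nucleic acid sensor gene Zbp1 one of -1.37 and the RNA-editing enzyme gene Adar one of -0.86, and these 4 fell as well. Trim25, a ubiquitin ligase gene that acts on Rig-I, fell to 228 ± 39.9 CPM in mIDH1, against 557 ± 69.0 CPM in wtIDH1 (-1.29 ± 0.18 SE, edgeR adjusted p = 0.0015). The RNA helicase gene Dhx9 rose (0.72 ± 0.20 SE, edgeR adjusted p = 0.0422). Eif2ak2, the gene of the kinase Pkr, had 156, 96.0 and 67.1 CPM in mIDH1 libraries, against 138, 210 and 219 CPM in wtIDH1 libraries, and did not pass (-0.83 ± 0.28 SE, edgeR adjusted p = 0.0902). Only Trim25 fell without mIDH1 replicate 2, wtIDH1 replicate 2 or wtIDH1 replicate 3, and 4 genes fell without wtIDH1 replicate 1. Dhx9 passed without mIDH1 replicate 1, and not without any other library.

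The genes of the interferon signal mostly averaged lower, but only part of them passed the test. Of 9 receptor and signalling genes 8 had a negative log2 fold change, with a median of -0.54 over the list. By the test 3 fell and none rose. Stat2 fell to 125, 73.8 and 56.6 CPM in mIDH1 libraries, against 289, 391 and 440 CPM in wtIDH1 libraries (log2 fold change -2.13 ± 0.27 SE, edgeR adjusted p = 0.00076). Its partner Irf9 had a log2 fold change of -0.60 ± 0.19 SE and did not pass (edgeR adjusted p = 0.0697). Tyk2, a receptor-bound kinase gene (-1.02), and Usp18, a feedback inhibitor gene (-1.56), fell too. The receptor chain genes Ifnar1 (-0.54, edgeR adjusted p = 0.111) and Ifnar2 (-0.13, edgeR adjusted p = 0.690) did not pass. Without mIDH1 replicate 1, however, 5 of these genes fell, among them Irf9 and Ifnar1, and 2 fell without mIDH1 replicate 2, wtIDH1 replicate 2 or wtIDH1 replicate 3.

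Among 5 interferon regulatory factors 3 fell and none rose. Irf7, which drives the interferon genes themselves and is the target of Oasl1, fell to 360 ± 152 CPM in mIDH1, against 1133 ± 144 CPM in wtIDH1 (SD, n = 3 each; log2 fold change -1.65 ± 0.26 SE, edgeR adjusted p = 0.003). Irf5 (-0.59) and Irf8 (-0.76) fell by less, and Irf3 had a log2 fold change of -0.74 (edgeR adjusted p = 0.126). The count of those that fell was 4 without mIDH1 replicate 1, 2 without mIDH1 replicate 3 or wtIDH1 replicate 3, and 1 without any 1 of the other libraries. In all, 13 of the 31 tested genes of these lists passed, 12 of them lower, against 8.17% of all genes in either direction. Nothing is read from this count, since the lists were chosen with earlier results of these data known. The genes of these lists past the threshold in each of 15 other settings were Stat2, Tyk2, Irf7 and Trim25.

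Transcripts of type I interferon itself were scarce. Ifna1, Ifna2, Ifna4, Ifna5 and Ifne had 0 counts in all 6 libraries. Ifnb1 had 3.70, 0 and 0.618 CPM in mIDH1 libraries, against 1.02, 0.0379 and 0.454 CPM in wtIDH1 libraries. Ifnk had 0.0574, 3.60 and 0.428 CPM in mIDH1 libraries, against 4.58, 6.45 and 3.73 CPM in wtIDH1 libraries, and the groups lay close without overlap. Neither gene passed (edgeR adjusted p = 0.674 for Ifnb1 and 0.389 for Ifnk; unadjusted p of both above 0.05).

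**Figure D4:**
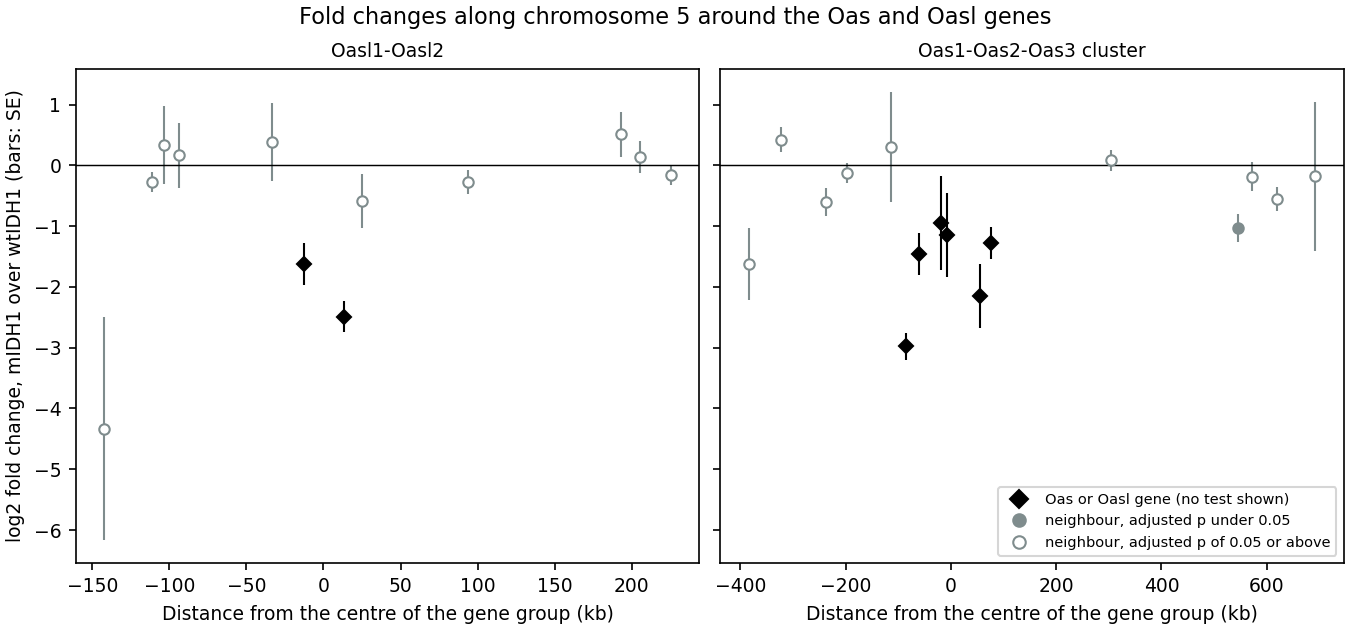
Log2 fold change, mIDH1 over wtIDH1, with its SE (y axis) against the distance in kb from the centre of the Oasl1-Oasl2 pair (left) and of the Oas1-Oas2-Oas3 cluster (right). Black diamonds are Oas and Oasl genes, without a test, and grey circles the 5 nearest tested genes on each side, of which 1, Trafd1 at -1.03, passed the test.

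Genes next to the family on chromosome 5 mostly did not pass the test. Of the 20 nearest tested neighbours, 5 on each side of each gene group, 1 fell and none rose, with a median log2 fold change of -0.17. Over all genes tested 5.39% fell and 2.78% rose, with a median of 0.06. The count of calls therefore does not set the neighbours apart from other genes. The one that fell was Trafd1, a regulator of innate signalling 450.1 kb from the cluster, at 232 ± 73.0 CPM in mIDH1 and 474 ± 76.4 CPM in wtIDH1 (SD, n = 3 each; -1.03 ± 0.22 SE, edgeR adjusted p = 0.0155). The closest neighbours, Dtx1 at 18.5 kb from the cluster and 2210016L21Rik at 4.24 kb from Oasl1, had log2 fold changes of 0.30 ± 0.91 SE and -0.59 ± 0.44 SE (edgeR adjusted p = 0.893 and 0.486). Ptpn11, a phosphatase gene on the other side of the cluster, stood at 128 ± 4.28 CPM in mIDH1 and 121 ± 17.7 CPM in wtIDH1.

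Of genes outside the family, 6 were named for the pattern most like the members' over the 6 libraries. Likeness was the root mean square difference between a gene's centred log2 CPM and the mean of the 8 centred profiles, over 9640 other genes with a mean of at least 5 CPM. The nearest was the cytokine gene Osm (difference of 0.13 on the log2 scale), at 119, 167 and 110 CPM in mIDH1 libraries, against 332, 528 and 475 CPM in wtIDH1 libraries. The next were the stress-induced transcription factor gene Atf3 (0.14), Rasa4 (0.18), Ccdc88b (0.19), Ankrd11 (0.20) and the cyclin gene Ccnl2 (0.20). The members themselves lay between 0.33 (Oasl1) and 1.09 (Oas1c) from their own mean, farther than these 6 genes. Nothing is read from this, since the 6 were picked as the nearest of 9640 genes and the members were not chosen by this distance.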

How the data were processed

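The authors deposited unscaled estimated counts for each gene. TopHat2 2.0.13 with Bowtie2 2.2.1, HTSeq, Cufflinks, Cuffdiff 2.1.1, FastQC and build mm10 are named in the submitters' processing notes, without order, settings or annotation. From 1.31 to 1.61% of values per library were not whole (tolerance 1e-09), and all were rounded. Per the labels, polyadenylated RNA was sequenced with a TruSeq kit, version 2, which does not mark strand. Exons of Oas1c and Oasl1 overlap antisense genes by 227 and 38 bases.

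Libraries held 35093267, 31605061 and 19728204 counts in mIDH1 and 21538975, 27750515 and 20502713 in wtIDH1. Counts of replicates differed by more than sampling noise, with a chi-square of at least 50.3 for each degree of freedom. Genes passing filterByExpr (minimum count 10) were compared with edgeR 4.0.16 in R 4.3.3 (TMM, glmQLFit, glmQLFTest, group alone, 4 residual degrees of freedom), two-sided, with Benjamini-Hochberg adjustment over all 12950 genes tested and a threshold of 0.05. All 8 members passed the filter and had at least 22 counts in every library. DESeq2 1.42.0 and limma 3.58.1 were alternatives. A floor is 3 counts in a library and covers counting error only. Transcripts are from GENCODE M21, matched to RefSeq, and promoters from RefSeq (GRCm38.p6).

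Members and lists were chosen with earlier results of these data known. Named are all members, fixed pathway genes and those called, the 5 nearest tested genes on each side, and the 6 genes of most like pattern. Some pathway genes of that rule are not reported here. Apol9a and Apol9b were chosen after their sequence match was seen. Same-numbered libraries did not deviate together (correlations between -0.05 and 0.03), so numbers were not treated as pairs.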

Additional observations from a re-analysis of the deposited data

How the results depend on the processing

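All 8 members kept a negative log2 fold change in each of 15 alternative settings. Oas2 and Oasl1 passed the threshold in each, and Oas1b and Oas1c in none. Under DESeq2 Oas3 (-1.46) no longer passed, and with robust dispersion Oas3 (-1.45) and Oasl2 (-1.63) did not. With the replicate block, although numbers do not pair the libraries, Oas3 (-1.57) did not pass, 585 genes in all and 7 pathway genes did. The number of genes called was 1705 by DESeq2. With all Oas and Oasl rows summed the value was -1.76, which moved from those of Oas1a, Oas2 and Oasl1. Leaving out 1 library gave 334 to 1033 genes called, 2 to 6 members and 4 to 17 pathway genes. The log2 fold change then ranged from -1.46 to -1.04 for Oas1a, -2.07 to -0.80 for Oas1b, -1.52 to -0.45 for Oas1c, -2.70 to -1.71 for Oas1g, -1.79 to -1.09 for Oas3 and -2.07 to -1.27 for Oasl2. Direction turned, for genes that passed in no setting, in Mavs (-0.34 to 0.093), Ifnb1 (-0.70 to 2.55) and Socs1 (-0.90 to 0.10). The causes were not tested. Library totals alone moved the median of all genes tested to 0.13 and gave 486 higher and 593 lower genes, against 360 and 698 by TMM, and called the same 6 members. With 3 libraries a group and low counts, Oas1b and Oas1c are the least precise.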
